A study of Mus musculus with 12 samples.

Results

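A set of 10 genes that mark T cells and cytotoxic lymphocytes was followed in mouse colon: Cd3d, Cd3e, Cd3g, Cd4, Cd8a, Gzma, Gzmb, Prf1, Nkg7 and Ccl5. They were taken by gene symbol from the array's platform annotation, and where a gene had several probes the one with the highest mean was to be used. All 10 listed genes were found, each with a single probe, among 19505 named genes on an array of 22206 probes. The study asked how the loss of 2 secreted L-amino acid oxidases, IL4i1 and LAO1, is linked to colonic inflammation in mice. These flavoenzymes turn amino acids into keto acids, ammonia and hydrogen peroxide. The groups were the double knockout without either enzyme (DKO), the LAO1 knockout (LAO1 KO), the IL4i1 knockout (IL4i1 KO) and wild type (WT), with 3 Affymetrix arrays each and 12 in all. Every group consisted of healthy male mice aged 12 to 16 weeks, and the labels give no treatment of any group. The labels say that 4 mice were chosen per genotype, beside the 3 arrays of each. The mouse strain, the cells in which the genes were deleted and whether an array held the RNA of 1 mouse are not stated in the sources used here. A p-value thus refers to the scatter among these arrays, which may be technical.

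T cells recognise antigen through a T cell receptor whose signal is carried by the CD3 chains encoded by Cd3d, Cd3e and Cd3g, while the coreceptors CD4 and CD8 bind the MHC class II and class I molecules of the partner cell. Cytotoxic T cells and natural killer cells kill by releasing granules in which perforin (Prf1) opens the target membrane to granzymes (Gzma, Gzmb), proteases that start cell death, and Nkg7 encodes a granule membrane protein that takes part in this release. The colon holds many such cells within and beneath its epithelium, where they guard the barrier and take part in inflammation, and Ccl5 encodes a chemokine that they secrete and that draws further T cells.

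The DNA just before the start of the cytotoxic granule genes is shown because Gzma and Gzmb gave the widest differences among the 10 genes, and that of Cd3e because it was the one gene that stood higher on every DKO array than on all other arrays. RefSeq windows of 250 bases before the gene start (build GRCm38.p6) matched 8 of the 10 genes by symbol, all but Cd4 and Ccl5. Capitals mark the RUNX core, TGTGGT or its reverse ACCACA, the letters bound by RUNX transcription factors such as RUNX3, a regulator of cytotoxic T cells. Windows are written 5′ to 3′ on the strand of the gene, and all 4 granule genes hold the core.
Gzma (chr13:113100982-113101231, minus strand): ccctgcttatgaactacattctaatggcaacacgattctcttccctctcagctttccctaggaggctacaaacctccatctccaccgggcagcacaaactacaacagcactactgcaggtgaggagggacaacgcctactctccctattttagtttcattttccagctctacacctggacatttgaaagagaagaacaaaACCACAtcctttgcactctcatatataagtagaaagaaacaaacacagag
Gzmb (chr14:56262335-56262584, minus strand): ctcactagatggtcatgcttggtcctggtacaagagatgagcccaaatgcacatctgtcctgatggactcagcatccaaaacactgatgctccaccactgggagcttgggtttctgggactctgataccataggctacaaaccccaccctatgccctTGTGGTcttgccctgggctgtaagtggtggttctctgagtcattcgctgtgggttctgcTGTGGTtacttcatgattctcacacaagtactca
Prf1 (chr10:61297586-61297835, plus strand): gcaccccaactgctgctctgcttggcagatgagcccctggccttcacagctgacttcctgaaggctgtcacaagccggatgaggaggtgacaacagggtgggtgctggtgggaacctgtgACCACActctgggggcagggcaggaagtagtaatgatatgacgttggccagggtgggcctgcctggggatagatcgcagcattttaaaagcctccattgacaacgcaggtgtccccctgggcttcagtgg
Nkg7 (chr7:43436888-43437137, plus strand): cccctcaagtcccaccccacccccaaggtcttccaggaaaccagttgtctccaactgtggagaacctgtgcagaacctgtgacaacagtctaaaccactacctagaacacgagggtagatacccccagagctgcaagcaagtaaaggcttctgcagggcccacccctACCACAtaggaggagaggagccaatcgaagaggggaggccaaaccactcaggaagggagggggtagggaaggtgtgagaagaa
Cd3e (chr9:45009612-45009861, minus strand): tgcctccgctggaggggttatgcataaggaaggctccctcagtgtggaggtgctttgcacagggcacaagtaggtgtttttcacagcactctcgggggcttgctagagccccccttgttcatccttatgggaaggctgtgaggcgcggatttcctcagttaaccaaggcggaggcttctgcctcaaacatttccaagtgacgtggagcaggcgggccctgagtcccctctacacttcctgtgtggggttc
Gzmb carried 2 cores, which lay 93 and 34 bases before the start. The single cores of Gzma, Prf1 and Nkg7 lay 50, 130 and 83 bases before it. None of the windows of Cd3d, Cd3e, Cd3g and Cd8a held the core, and 14.0% of all 32851 RefSeq windows of this length held it on either strand. Of the other motifs searched on both strands, the CRE core ACGTCA stood in the windows of Cd3e and Prf1 (6.47% of all windows), the GAS motif TTCNNNGAA in those of Cd3d and Nkg7 (7.02%), the AP-1 motif TGANTCA in that of Gzmb (6.75%) and the T-box sequence GGTGTGA in that of Nkg7 (3.33%). The TATA sequence TATAAA (12.4%) was in none of the 8, and the E-box CANNTG and the ETS core GGAA stand in 66.2% and 93.4% of all windows and were not read further. These matches describe letters in a window and show no binding.

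The arrays were alike as a whole. Array medians lay between 5.415 and 5.49 on the log2 scale, and pairwise correlations over all probes between 0.964 and 0.99. Markers of epithelium were bright on all 12 arrays, with list means from 15.87 to 17.34. DKO replicate 2 held pancreatic signal: 7 acinar genes averaged 16.73 there, against 3.84 to 4.77 on the other 11 arrays. IL4i1 KO replicate 2 stood apart on the first principal component (68.94, next 20.75) and DKO replicate 1 on the second (-61.67, next -29.93). DKO replicate 2 stood apart on the third (56.85, next on that side 17.65). The targeted genes gave no check of the labels, since Il4i1 had no probe of its name and the Lao1 probe was dim, at 3.23, 3.41 and 3.56 in DKO, 3.1, 2.68 and 3.24 in LAO1 KO, 2.98, 3.33 and 3.16 in IL4i1 KO and 3.24, 3.12 and 2.64 in WT. For 6 of the 10 genes (Cd3d, Cd3g, Gzmb, Prf1, Nkg7 and Ccl5) the probe had a mean below 4.67, the 40th percentile of all probe means, and the files used here hold no call of detection for a probe.

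In the DKO colon, 6 of the 10 genes had their highest mean of the 4 genotypes: Cd3e, Cd8a, Gzma, Gzmb, Nkg7 and Ccl5. Over all probes, DKO held the highest mean for 26.5%. Cd3d and Prf1 were highest in IL4i1 KO, Cd3g in LAO1 KO and Cd4 in WT. LAO1 KO had the lowest mean for 6 of the 10 genes, against 20.9% of all probes. In whole tissue, fewer cells of a type and less RNA per cell cannot be told apart.

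**Figure D1:**
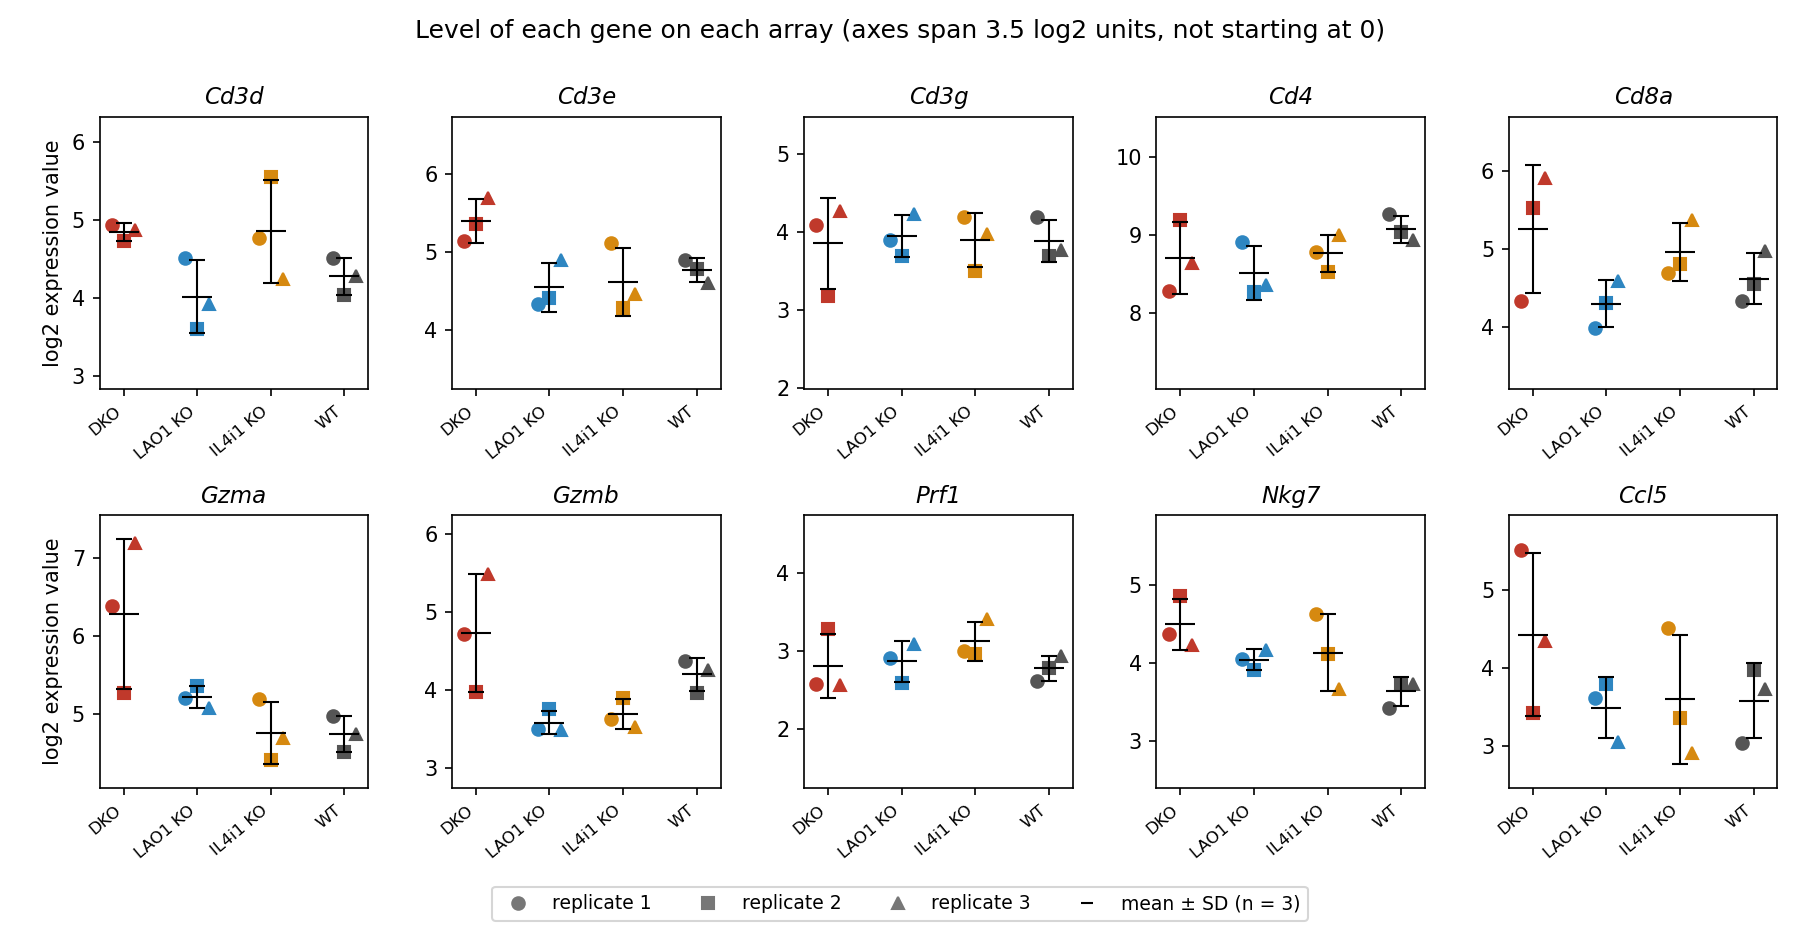
Log2 expression value of each of the 10 genes on each array, by genotype (DKO, LAO1 KO, IL4i1 KO, WT). Symbols are single arrays by replicate number and bars the mean ± SD of 3 arrays; axes span the same number of log2 units and do not start at 0. Gzma spread from 5.27 to 7.19 in DKO and stayed between 4.52 and 4.98 in WT.

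Among the granule genes, Gzma, which encodes granzyme A, had log2 values of 6.39, 5.27 and 7.19 in DKO, 5.21, 5.36 and 5.08 in LAO1 KO, 5.19, 4.41 and 4.69 in IL4i1 KO, and 4.98, 4.52 and 4.74 in WT. All DKO arrays lay above all WT and all IL4i1 KO arrays, while DKO replicate 2 lay within the range of LAO1 KO, and the DKO arrays were far more scattered than those of the other genotypes. DKO averaged 6.28 ± 0.96 and WT 4.75 ± 0.23 (SD, n = 3 each), a difference of 1.54 on the log2 scale or 2.9-fold (SE 0.38, 95% interval 0.72 to 2.35). The SE, interval and p rest on a spread pooled over all genotypes (residual SD 0.54), which is narrower than that of DKO alone. They thus understate the scatter of DKO. The limma p was 0.00126 before and 0.363 after Benjamini-Hochberg adjustment over all probes, so the difference did not pass the threshold of 0.05. Against IL4i1 KO, with a mean of 4.76 ± 0.4, DKO stood 1.52 higher (SE 0.38, adjusted p = 0.137 by limma), and against LAO1 KO, with 5.22 ± 0.14, it stood 1.07 higher (adjusted p = 0.555). LAO1 KO arrays also lay above all WT arrays for this gene, by a mean of 0.47 (adjusted p = 1.0).

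Gzmb, the gene of granzyme B, measured 4.72, 3.97 and 5.49 in DKO, 3.5, 3.76 and 3.49 in LAO1 KO, 3.63, 3.9 and 3.53 in IL4i1 KO, and 4.37, 3.96 and 4.26 in WT. Every array of either single knockout lay below every WT array, and every DKO array lay above every array of both single knockouts. The means were 4.73 ± 0.76 in DKO, 3.58 ± 0.15 in LAO1 KO, 3.69 ± 0.19 in IL4i1 KO and 4.2 ± 0.21 in WT (SD, n = 3). The pooled spread behind the SE and p of this gene (residual SD 0.41) was again narrower than that of DKO. DKO exceeded LAO1 KO by 1.14 or 2.21-fold (SE 0.31, 95% interval 0.48 to 1.8, adjusted p = 0.323 by limma) and IL4i1 KO by 1.04 or 2.06-fold (adjusted p = 0.227). DKO and WT overlapped and differed by 0.53 (adjusted p = 0.745). The LAO1 KO and IL4i1 KO differences from WT were -0.61 and -0.51 (adjusted p = 1.0 and 0.704 by limma), so none of the 5 pairwise contrasts of this gene passed.

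DKO replicate 2, the array with the acinar signal, had the lowest Gzma, Gzmb, Ccl5, Cd3d and Cd3g of the 3 DKO arrays. Of these arrays it also had the highest Cd4 (9.19), Prf1 (3.29) and Nkg7 (4.87) and the highest pan-leukocyte mean (7.95). For Cd3e and Cd8a it lay between the other DKO arrays. Without it, Gzma in DKO stood 2.04 above WT (adjusted p = 0.0234), 1.57 above LAO1 KO (adjusted p = 0.0495) and 2.03 above IL4i1 KO (adjusted p = 0.00593), and Gzmb stood 1.52 above LAO1 KO (adjusted p = 0.0306) and 1.42 above IL4i1 KO (adjusted p = 0.0261), all by limma. These 5 differences thus passed with 2 DKO arrays and missed with 3. Without DKO replicate 3, the array with the highest Gzma and Gzmb, Gzma in DKO stood 1.08 above WT, 0.61 above LAO1 KO and 1.07 above IL4i1 KO, while Gzmb stood 0.15 above WT, 0.76 above LAO1 KO and 0.66 above IL4i1 KO. None of these passed, and the Gzma difference from LAO1 KO no longer had an unadjusted p under 0.05. The part of the pancreatic signal in these values was not tested.

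The other granule genes were dim, as was Gzmb. Over all arrays the mean was 4.08 for Nkg7 and 2.9 for Prf1, beside 4.05 for Gzmb. Nkg7 read 4.38, 4.87 and 4.24 in DKO, 4.06, 3.91 and 4.17 in LAO1 KO, 4.64, 4.12 and 3.67 in IL4i1 KO, and 3.43, 3.74 and 3.74 in WT. All arrays of DKO and of LAO1 KO lay above the WT arrays, and IL4i1 KO overlapped WT through its replicate 3. DKO averaged 4.5 ± 0.33 and WT 3.64 ± 0.18, a difference of 0.86 or 1.82-fold (SE 0.25, 95% interval 0.31 to 1.41, adjusted p = 0.461 by limma). The Nkg7 difference from WT was 0.41 in LAO1 KO and 0.51 in IL4i1 KO, and DKO lay above every LAO1 KO array by a mean of 0.45 (adjusted p = 0.783). Prf1, which encodes perforin, lay near the bottom of the scale, between 2.57 and 3.42 on all arrays. Its means were 2.81 ± 0.41 in DKO, 2.87 ± 0.26 in LAO1 KO, 3.13 ± 0.25 in IL4i1 KO and 2.78 ± 0.16 in WT. The Prf1 difference of DKO from WT was 0.03 (95% interval -0.49 to 0.55), while the IL4i1 KO arrays all lay above the WT arrays by a mean of 0.35 (adjusted p = 0.745 by limma).

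The 3 CD3 genes gave different patterns. Cd3e had values of 5.15, 5.36 and 5.7 in DKO, 4.33, 4.41 and 4.9 in LAO1 KO, 5.12, 4.28 and 4.47 in IL4i1 KO, and 4.9, 4.79 and 4.61 in WT. Its 3 DKO arrays lay above the other 9 arrays, a pattern found for 230 probes (1.04% of all). The DKO mean of 5.4 ± 0.28 stood 0.64 above the WT mean of 4.77 ± 0.15 (SE 0.25, adjusted p = 0.612), 0.86 above LAO1 KO (4.55 ± 0.31, adjusted p = 0.442) and 0.78 above IL4i1 KO (4.62 ± 0.44, adjusted p = 0.275), all by limma. Cd3d measured 4.94, 4.73 and 4.87 in DKO, 4.52, 3.6 and 3.93 in LAO1 KO, 4.77, 5.56 and 4.25 in IL4i1 KO, and 4.51, 4.04 and 4.29 in WT. Its DKO arrays all lay above those of WT (difference 0.57, adjusted p = 0.74 by limma) and above those of LAO1 KO (0.83, adjusted p = 0.609). The highest Cd3d value of all was that of IL4i1 KO replicate 2, so DKO and IL4i1 KO had near-equal means of 4.85 ± 0.11 and 4.86 ± 0.66. Without that array the IL4i1 KO difference from WT was 0.23, and with it 0.58. Cd3g had overlapping values in all genotypes, between 3.19 and 4.28, with means of 3.86 ± 0.58 in DKO, 3.95 ± 0.27 in LAO1 KO, 3.9 ± 0.35 in IL4i1 KO and 3.89 ± 0.27 in WT. Its DKO difference from WT was -0.03 (95% interval -0.67 to 0.6).

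The coreceptor genes had DKO differences from WT of opposite sign, neither of which passed. Cd8a, the gene of the CD8 alpha chain of cytotoxic T cells, read 4.34, 5.53 and 5.91 in DKO, 3.99, 4.31 and 4.59 in LAO1 KO, 4.7, 4.81 and 5.38 in IL4i1 KO, and 4.34, 4.55 and 4.98 in WT. DKO replicates 2 and 3 lay above all other arrays, while DKO replicate 1 was level with WT replicate 1. The DKO mean was 5.26 ± 0.82 against 4.62 ± 0.33 in WT (difference 0.64, adjusted p = 0.74 by limma) and 4.3 ± 0.3 in LAO1 KO (difference 0.96 or 1.95-fold, adjusted p = 0.583). Without DKO replicate 1, which stood apart over all probes, the differences were 1.1 and 1.42, and without DKO replicate 3, which had the highest value, they were 0.31 and 0.64. Neither passed in either case, and without replicate 3 that from LAO1 KO no longer had an unadjusted p under 0.05. Cd4, which marks helper T cells and is also carried by resident macrophages of the gut, measured 8.28, 9.19 and 8.64 in DKO, 8.91, 8.27 and 8.36 in LAO1 KO, 8.78, 8.52 and 8.99 in IL4i1 KO, and 9.26, 9.03 and 8.93 in WT. Cd4 in LAO1 KO lay below WT on every array, with means of 8.51 ± 0.35 and 9.07 ± 0.17 (difference -0.56, SE 0.26, adjusted p = 1.0 by limma). The Cd4 differences of DKO and IL4i1 KO from WT were -0.37 (adjusted p = 0.804) and -0.31 (adjusted p = 0.795), with overlapping arrays.

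Ccl5, the chemokine gene, was dim and scattered, with 5.51, 3.42 and 4.35 in DKO, 3.62, 3.79 and 3.05 in LAO1 KO, 4.52, 3.36 and 2.91 in IL4i1 KO, and 3.04, 3.97 and 3.73 in WT. All genotypes overlapped, and the highest value was that of DKO replicate 1. DKO averaged 4.43 ± 1.05 and WT 3.58 ± 0.48, a difference of 0.85 (95% interval -0.22 to 1.91, adjusted p = 0.748 by limma), which was 0.3 without DKO replicate 1 and 1.35 without DKO replicate 2. Ccl5 in DKO stood 0.94 above LAO1 KO (3.49 ± 0.39, adjusted p = 0.756) and 0.83 above IL4i1 KO (3.6 ± 0.83, adjusted p = 0.627), again with overlap, and neither passed.

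**Figure D2:**
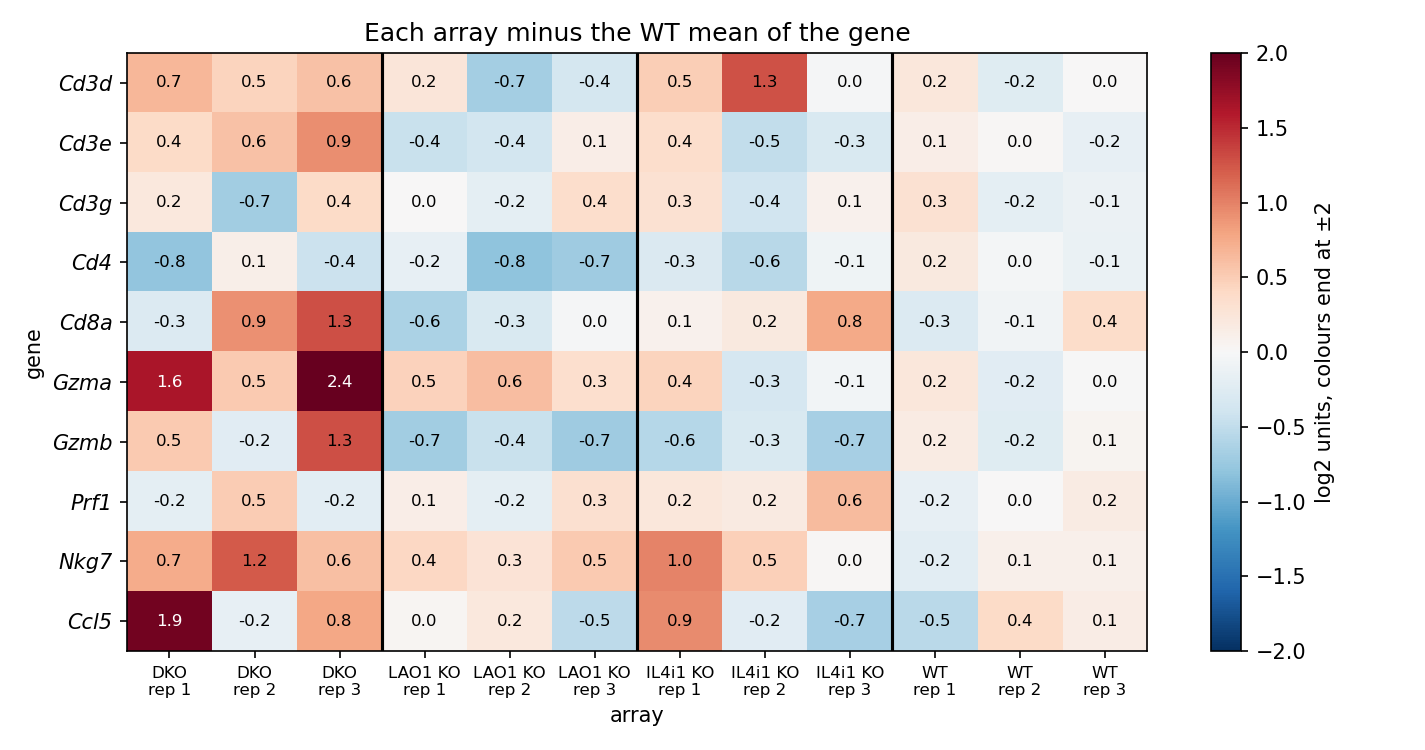
Log2 value of each gene on each array less the WT mean of that gene, with arrays as columns and genes as rows; red is above and blue below the WT mean, with the value in each cell. Gzma was above the WT mean on all 3 DKO arrays, Gzmb below it on all 6 single knockout arrays, and Prf1 and Cd3g showed no shared direction in DKO.

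Read array by array, DKO replicate 3 held the highest value of 5 genes (Cd3e, Cd3g, Cd8a, Gzma and Gzmb), DKO replicate 1 that of Ccl5 and DKO replicate 2 that of Nkg7. Beyond DKO, IL4i1 KO replicate 1 lay above the median of the 12 arrays for 8 of the 10 genes, the same number as DKO replicates 2 and 3, and LAO1 KO replicate 2 for 2. The mean of the 4 granule genes was 4.52, 4.35 and 4.87 on the DKO arrays, 3.92, 3.91 and 3.96 on LAO1 KO, 4.12, 3.85 and 3.83 on IL4i1 KO, and 3.85, 3.75 and 3.92 on WT arrays. That of the 3 CD3 genes was 4.73, 4.43 and 4.95 in DKO, 4.25, 3.9 and 4.36 in LAO1 KO, 4.7, 4.45 and 4.23 in IL4i1 KO, and 4.54, 4.18 and 4.22 in WT. The DKO arrays thus stood apart from all others in the granule mean, and overlapped IL4i1 KO and WT in the CD3 mean.

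By comparison, the DKO against WT contrast asked what differs with the loss of both enzymes. None of the 10 genes passed the adjusted threshold, which 5 probes in all passed (0.0225%). At an unadjusted p under 0.05, 3 genes (Gzma, Nkg7 and Cd3e) were higher and 0 lower, where 3.63% of all probes were higher and 3.81% lower. For 4 genes (Cd3d, Cd3e, Gzma and Nkg7) every DKO array lay above every WT array, as for 5.68% of all probes, and none lay wholly below, as 5.95% did. The median difference of the 10 genes was 0.6, against 0.0 over all probes.

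Loss of LAO1 alone gave 0 of the 10 genes past the adjusted threshold in LAO1 KO against WT, which 1 probe passed (0.0045%). At an unadjusted p under 0.05, 0 genes were higher and Cd4 alone was lower, as were 1.45% and 1.57% of all probes. Gzma and Nkg7 lay above WT on every array (4.67% of all probes) and Cd4 and Gzmb below it (3.86%). The median difference was -0.16, against 0.01 over all probes. For IL4i1 KO against WT, 0 of the 10 genes passed the adjusted threshold, as 3 probes did (0.0135%), and by limma 0 were higher and 0 lower at an unadjusted p under 0.05, as were 3.25% and 4.34% of all probes. Prf1 lay above WT on every array (5.97% of all probes) and Gzmb below (5.16%), and the median difference was 0.02, against 0.03 over all probes.

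The contrasts of DKO with the single knockouts ask what changes with the second loss. In DKO against LAO1 KO, 0 of the 10 genes passed the adjusted threshold, which 31 probes passed (0.14%). There, 5 genes (Cd3d, Cd3e, Cd8a, Gzma and Gzmb) were higher at an unadjusted p under 0.05, as were 3.51% of all probes, and 0 were lower (3.64%). All arrays lay above for 4 (Cd3d, Cd3e, Gzmb and Nkg7; 6.25% of all probes) and below for 0 (6.46%). The median difference was 0.84, against -0.01 over all probes. In DKO against IL4i1 KO, 0 of the 10 passed, where 106 probes did (0.477%). There, 3 genes (Cd3e, Gzma and Gzmb) were higher at an unadjusted p under 0.05 (5.17% of all probes) and 0 lower (4.66%). These 3 also had all arrays above (6.05%) and 0 had all below (6.62%), and the median was 0.33, against -0.02 over all probes. These contrasts share the DKO arrays with each other and with DKO against WT, and the single knockout contrasts with WT share the WT arrays, so these counts are not separate evidence.

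The interaction, DKO less both single knockouts plus WT on the log2 scale, asked whether the effect of one loss depends on the other. Again 0 of the 10 genes passed the adjusted threshold, which 51 probes passed (0.23%). Gzmb had an interaction of 1.65 (SE 0.43, 95% interval 0.72 to 2.59, adjusted p = 0.257) and Cd3e one of 1.0 (SE 0.36, adjusted p = 0.54), the 2 genes higher at an unadjusted p under 0.05 by limma, where 3.87% of all probes were higher and 3.26% lower. That of Gzma was 1.05 (95% interval -0.1 to 2.2, adjusted p = 0.741). Without DKO replicate 2 the Gzmb interaction was 2.03 and passed (adjusted p = 0.0266 by limma), and without DKO replicate 3 it was 1.27 and that of Gzma 0.6.

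**Figure D3:**
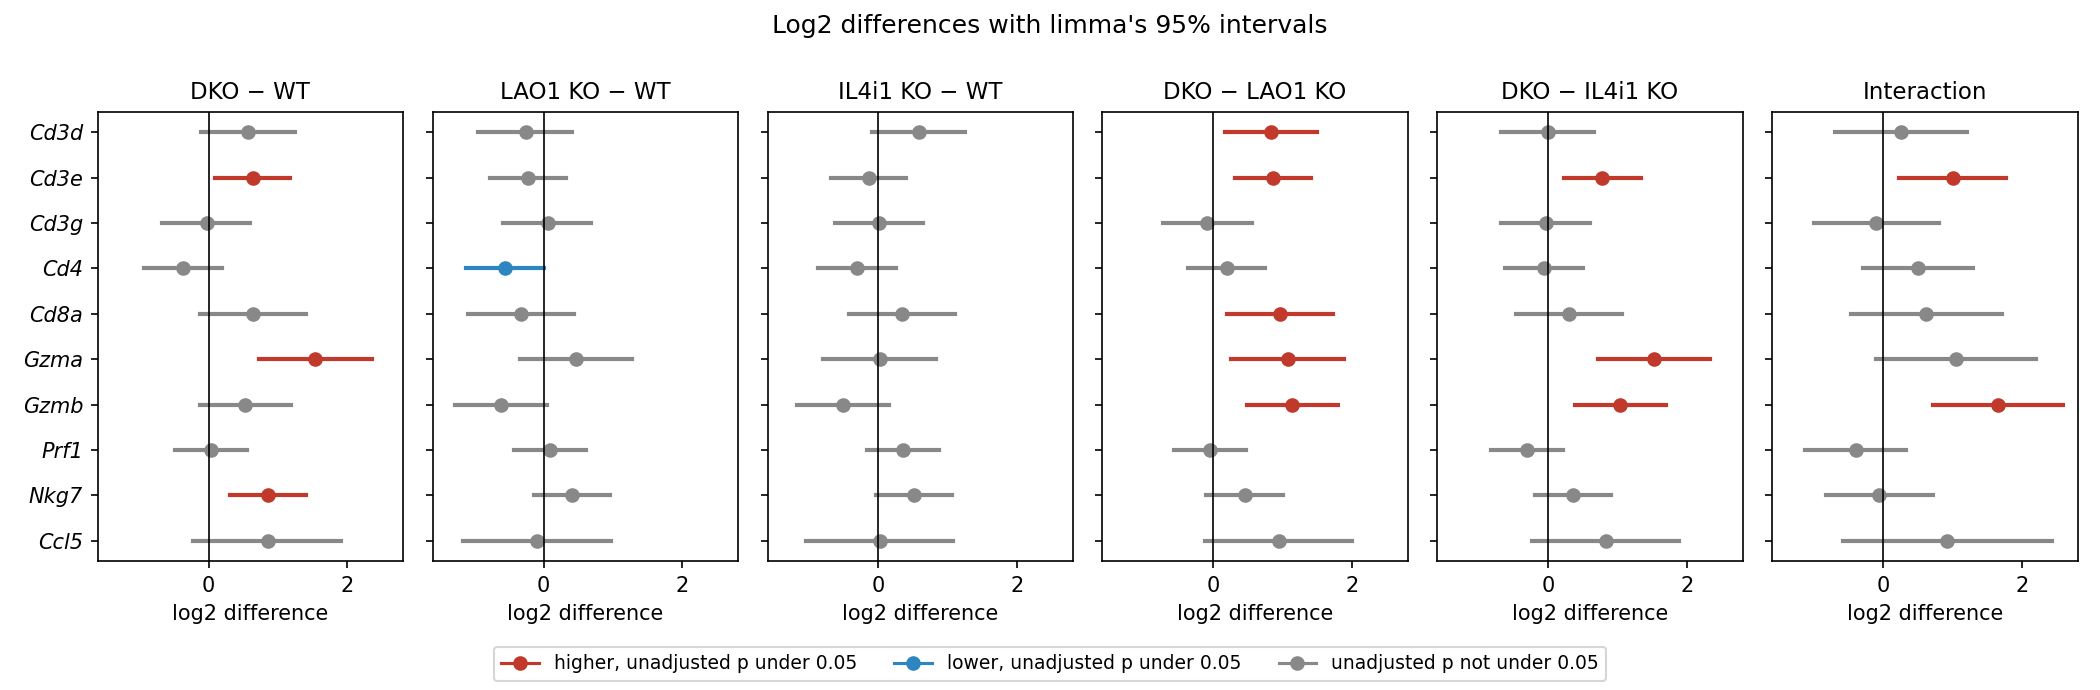
Log2 differences of the 10 genes in the 6 comparisons, with 95% intervals from limma; red and blue mark an unadjusted p under 0.05 above and below 0, grey the rest. The coloured points in the 3 DKO panels and the interaction are all above 0, among them Gzma in all 3 DKO panels, and none of the points passed the adjusted threshold.

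Other genes linked to these cells gave few calls: in the lymphocyte and chemokine lists that follow, Lcp2 and Ccl8 were the only genes past the adjusted threshold in any of the 6 comparisons. Of 17 further T cell receptor and signalling genes on the array, 1 was higher and 0 lower in DKO than in WT at an unadjusted p under 0.05, with a median difference of 0.06, where 3.63% of all probes were higher and 3.81% lower. Lcp2, which encodes the adaptor SLP-76 that relays the T cell receptor signal and also works in myeloid cells, measured 6.46, 6.05 and 5.79 in DKO, 5.3, 5.06 and 5.69 in LAO1 KO, 4.98, 4.52 and 4.62 in IL4i1 KO, and 5.79, 5.54 and 5.37 in WT. Its DKO values lay above those of both single knockouts on every array, and overlapped WT by the shared value of 5.79. Lcp2 was higher in DKO than in IL4i1 KO, by 1.39 (SE 0.24, adjusted p = 0.0194 by limma). DKO stood 0.75 above LAO1 KO (adjusted p = 0.507 by limma) and 0.53 above WT (adjusted p = 0.665), the last being 0.35 without DKO replicate 1. The Lcp2 difference from WT was -0.86 in IL4i1 KO and -0.22 in LAO1 KO, and neither passed. The call against IL4i1 KO was lost without IL4i1 KO replicate 2 (1.3, adjusted p = 0.0878), without IL4i1 KO replicate 3 (1.35, adjusted p = 0.091), without DKO replicate 1 (1.21, adjusted p = 0.115) and with only the arrays compared (adjusted p = 0.142). Cd6, a costimulatory receptor of T cells, was 0.76 higher in DKO than in LAO1 KO (adjusted p = 0.569), or 0.5 without DKO replicate 2, and Cd28, another one, 0.79 lower in IL4i1 KO than in WT (log2 difference -0.79, adjusted p = 0.587). Cd28 also stood below WT in DKO (-0.6, or -0.38 without DKO replicate 1) and in LAO1 KO (-0.46), and neither passed. The Cd6 difference from WT was 0.3 in DKO and -0.46 in LAO1 KO.

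Of 20 further cytotoxic and natural killer genes, 0 were higher and 1 lower in DKO than in WT at an unadjusted p under 0.05. Over all probes 3.63% were higher and 3.81% lower, and the median difference of the 20 genes was 0.07. The lower one was Ncr1, the gene of the natural killer receptor NKp46, with 3.66, 3.58 and 3.34 in DKO against a mean 0.52 higher in WT (difference -0.52, adjusted p = 0.661 by limma). Ncr1 and Klre1, a natural killer lectin receptor gene, were also lower in DKO than in LAO1 KO on every array, by -0.69 and -0.66 (adjusted p = 0.52 and 0.667). Serpinb9, which encodes an inhibitor of granzyme B, had differences of the other sign: it measured 5.92, 5.91 and 6.23 in DKO and 5.28, 5.11 and 4.72 in LAO1 KO, a difference of 0.98 (SE 0.2, adjusted p = 0.115 by limma). Serpinb9 was also 0.56 higher in DKO than in IL4i1 KO, and its interaction was 1.16 (adjusted p = 0.226). Its difference from WT was 0.39 in DKO and -0.6 in LAO1 KO, and neither passed.

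A further list held genes linked to intraepithelial and resident lymphocytes, the T cells lodged in the gut lining. It includes Il15, Il15ra and butyrophilin-like genes, which do not mark T cells themselves, so its counts do not measure T cell content. In DKO against WT it gave 1 higher and 0 lower of 15 (median 0.28, beside 3.63% and 3.81% of all probes). In DKO against LAO1 KO it gave 4 higher and 1 lower (median 0.41, beside 3.51% and 3.64%). In DKO against IL4i1 KO it gave 3 higher and 0 lower (median 0.46, beside 5.17% and 4.66%). Itgae, which encodes the CD103 integrin that holds T cells to the epithelium, measured 6.26, 6.46 and 7.38 in DKO, 5.56, 5.89 and 6.24 in LAO1 KO, 5.75, 5.92 and 5.61 in IL4i1 KO, and 6.42, 6.66 and 6.17 in WT. DKO lay above both single knockouts on every array and overlapped WT. The Itgae differences were 0.8 against LAO1 KO and 0.94 against IL4i1 KO (adjusted p = 0.561 and 0.242 by limma), and 0.46 and 0.6 without DKO replicate 3, its highest array. Runx3, the gene of a transcription factor of cytotoxic T cells, had values of 6.13, 5.63 and 6.39 in DKO, 5.34, 4.67 and 5.49 in LAO1 KO, 5.66, 4.75 and 4.83 in IL4i1 KO, and 5.33, 5.83 and 5.92 in WT. Its DKO differences were 0.88 against LAO1 KO (adjusted p = 0.545) and 0.97 against IL4i1 KO (adjusted p = 0.263). Against WT the Runx3 difference was 0.36, with overlapping arrays. Btnl2, a butyrophilin-like gene of the immune system, stood 1.1 above WT (0.72 without WT replicate 1) and 1.53 above LAO1 KO in DKO, and Jaml, which encodes a T cell adhesion molecule, 0.8 above LAO1 KO, and none of these passed. The Jaml difference from WT was 0.28 in DKO and -0.52 in LAO1 KO.

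Chemokine genes that draw lymphocytes held 1 called gene among 11. Ccl8, the gene of a chemokine made largely by macrophages, measured 7.11, 9.16 and 8.78 in DKO, 6.46, 5.61 and 5.57 in LAO1 KO, 5.48, 4.34 and 5.07 in IL4i1 KO, and 8.42, 6.83 and 6.25 in WT. DKO lay above both single knockouts on every array and overlapped WT. Ccl8 was higher in DKO than in IL4i1 KO, by 3.39 (SE 0.58, adjusted p = 0.018 by limma), and its interaction of 4.67 passed too (adjusted p = 0.0337). Over 18 alternatives the adjusted p of the first lay between 0.0086 and 0.0941, and over 17 that of the interaction between 0.0109 and 0.13. The Ccl8 difference from WT was 1.18 in DKO, -1.29 in LAO1 KO and -2.2 in IL4i1 KO, and none of these passed. Cxcl9, which encodes a ligand of CXCR3, a chemokine receptor of activated T cells, measured 13.36, 7.46 and 8.06 in DKO, 5.33, 4.83 and 4.05 in LAO1 KO, 4.27, 4.27 and 3.77 in IL4i1 KO, and 3.97, 5.88 and 6.99 in WT. All its DKO arrays lay above all others, and DKO replicate 1 far above the rest. Cxcl9 did not pass against IL4i1 KO (5.52, adjusted p = 0.0647 by limma), which became 6.61 without DKO replicate 2 and passed (adjusted p = 0.0215), and 3.66 without DKO replicate 1 (adjusted p = 0.0522). Its DKO differences from WT and LAO1 KO were 4.01 and 4.89, and 2.15 and 3.02 without DKO replicate 1. In DKO against WT 3 ligands of the 11 were higher (Cxcl9, Cxcl10 and Ccl3) and 0 lower at an unadjusted p under 0.05, with a list median of 0.28. Over all probes 3.63% were higher and 3.81% lower. Against LAO1 KO 5 ligands were higher and 1 lower (3.51% and 3.64% of all probes), and against IL4i1 KO 4 and 1 (5.17% and 4.66%). Of 11 chemokine receptors, 0 were higher and 0 lower in DKO than in WT at an unadjusted p under 0.05, with a median of 0.03. Ccr2, a receptor of monocytes and activated T cells, was 1.16 higher in DKO than in IL4i1 KO (adjusted p = 0.115), 0.7 lower in LAO1 KO than in WT (difference -0.7) and 0.99 lower in IL4i1 KO than in WT (difference -0.99).

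Helper and regulatory T cell genes gave 2 higher and 0 lower of 16 in DKO against WT at an unadjusted p under 0.05 (median 0.13). Over all probes 3.63% were higher and 3.81% lower. The 2 were Ifng and Il22, the genes of the cytokines interferon gamma and interleukin 22. Ifng, which T cells and natural killer cells secrete, measured 5.51, 4.34 and 4.77 in DKO and 3.84, 3.4 and 3.7 in LAO1 KO, all DKO arrays above, a difference of 1.23 (adjusted p = 0.217 by limma), and stood 0.91 above WT (adjusted p = 0.504), or 0.59 without DKO replicate 1. Ikzf2, the gene of the regulatory T cell factor Helios, was 1.02 higher in IL4i1 KO than in WT (adjusted p = 0.595), or 0.58 without IL4i1 KO replicate 1. Of 5 exhaustion and checkpoint genes, 0 differed at an unadjusted p under 0.05 in DKO against WT by limma, and the median was 0.21. Lag3, an inhibitory receptor gene, was 0.84 lower in IL4i1 KO than in WT (difference -0.84, adjusted p = 0.52) and 0.76 higher in DKO than in IL4i1 KO (adjusted p = 0.263), or 0.49 without IL4i1 KO replicate 2.

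**Figure D4:**
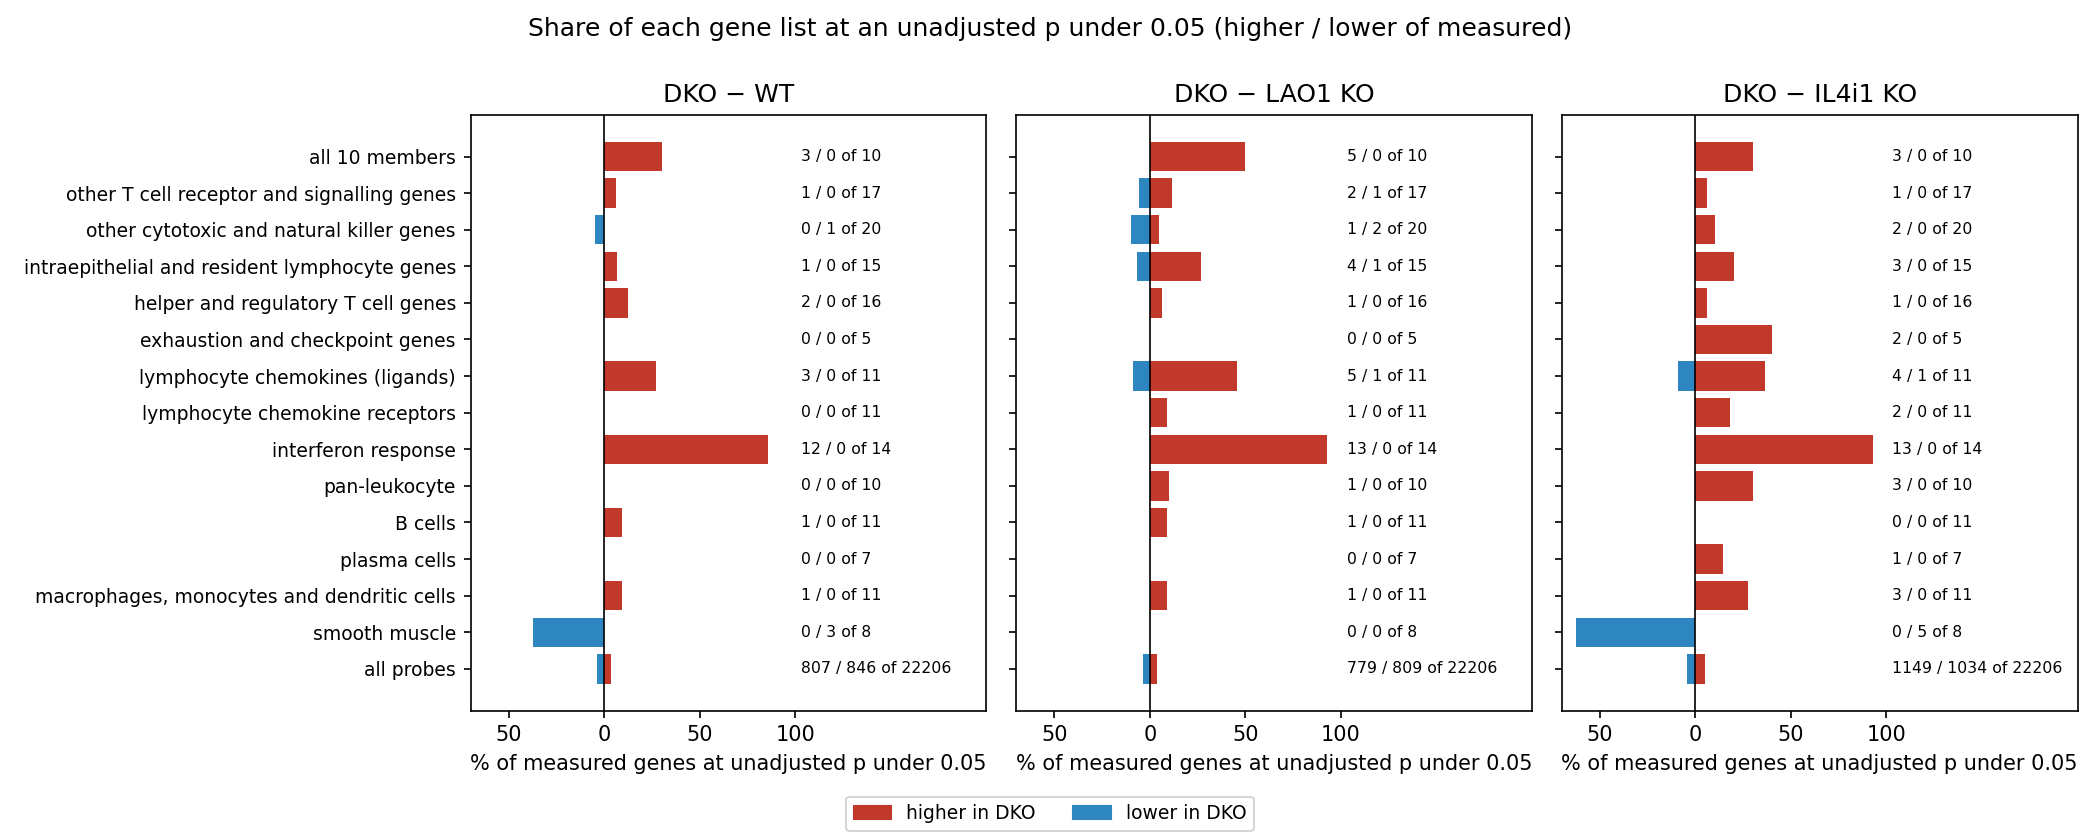
Percentage of the measured genes of each list, and of all probes, with an unadjusted p under 0.05 in DKO against WT, LAO1 KO and IL4i1 KO; bars to the right are higher and bars to the left lower in DKO, with the counts written beside them. The 10 genes had 3, 5 and 3 higher and 0 lower, and the interferon response 12, 13 and 13 of 14.

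Measures of the surrounding tissue stood beside these values. The mean of 14 interferon response genes was 9.48, 8.54 and 9.38 on the DKO arrays, 6.88, 6.68 and 6.37 in LAO1 KO, 6.36, 6.36 and 6.33 in IL4i1 KO, and 7.01, 7.46 and 7.98 in WT, with every DKO array above every other. Among these, 7 of 14 rose past the adjusted threshold in DKO against LAO1 KO (0.14% of all probes passed). In DKO against IL4i1 KO 10 of 14 did so (0.477%), and in DKO against WT 0 of 14 (0.0225%). In DKO against WT 12 were higher at an unadjusted p under 0.05, as were 3.63% of all probes. The 7 were Gbp2, Gbp3 and Gbp7 (guanylate-binding proteins), Igtp and Irgm2 (immunity-related GTPases), Oasl2 (of the oligoadenylate synthetase family) and Tap1 (the peptide transporter of MHC class I loading). Their differences of DKO from LAO1 KO lay between 2.52 for Oasl2 (SE 0.28, adjusted p = 0.0041 by limma) and 4.64 for Igtp (SE 0.56, adjusted p = 0.0041). Against IL4i1 KO the same 7 rose with Irf1, a transcription factor gene, and Psmb8 and Psmb9, which encode immunoproteasome subunits, by 2.35 for Psmb9 (adjusted p = 0.015) to 5.1 for Irgm2 (adjusted p = 0.000701). All of these but Psmb9 passed in the interaction, from 3.12 for Irf1 (adjusted p = 0.0375) to 7.2 for Irgm2 (adjusted p = 0.000953). In the single knockouts 8 of 14 were lower than WT in LAO1 KO and 9 in IL4i1 KO at an unadjusted p under 0.05, as were 1.57% and 4.34% of all probes, and 0 passed the adjusted threshold by limma. Irgm2 had the widest of these differences, -2.1 in LAO1 KO and -2.96 in IL4i1 KO. Without DKO replicate 2, the DKO array with the lowest interferon mean, 6 of 14 rose past the adjusted threshold in DKO against WT. They were Gbp2, Gbp3, Igtp, Psmb8, Psmb9 and Tap1. In that fit, with 2 DKO arrays, 38 of all 22206 probes passed. The mean of 10 pan-leukocyte genes ranged from 7.47 to 7.95 in DKO, 6.51 to 7.96 in LAO1 KO, 5.85 to 7.8 in IL4i1 KO and 7.0 to 7.98 in WT, so that all genotypes overlapped. For 11 B cell genes the ranges were 4.13 to 4.83 in DKO, 3.96 to 5.41 in LAO1 KO, 4.19 to 5.53 in IL4i1 KO and 4.09 to 4.39 in WT. The highest pan-leukocyte and B cell means of IL4i1 KO were those of replicate 1 and the lowest those of replicate 2. The 8 smooth muscle genes averaged 13.97 to 14.74 in DKO, 13.99 to 14.95 in LAO1 KO, 14.54 to 15.82 in IL4i1 KO and 14.56 to 15.18 in WT. Of these 8, 3 were lower in DKO than in WT at an unadjusted p under 0.05 (median -0.63), as were 3.81% of all probes. The part of these tissue measures in the values of the 10 genes was not tested.

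**Figure D5:**
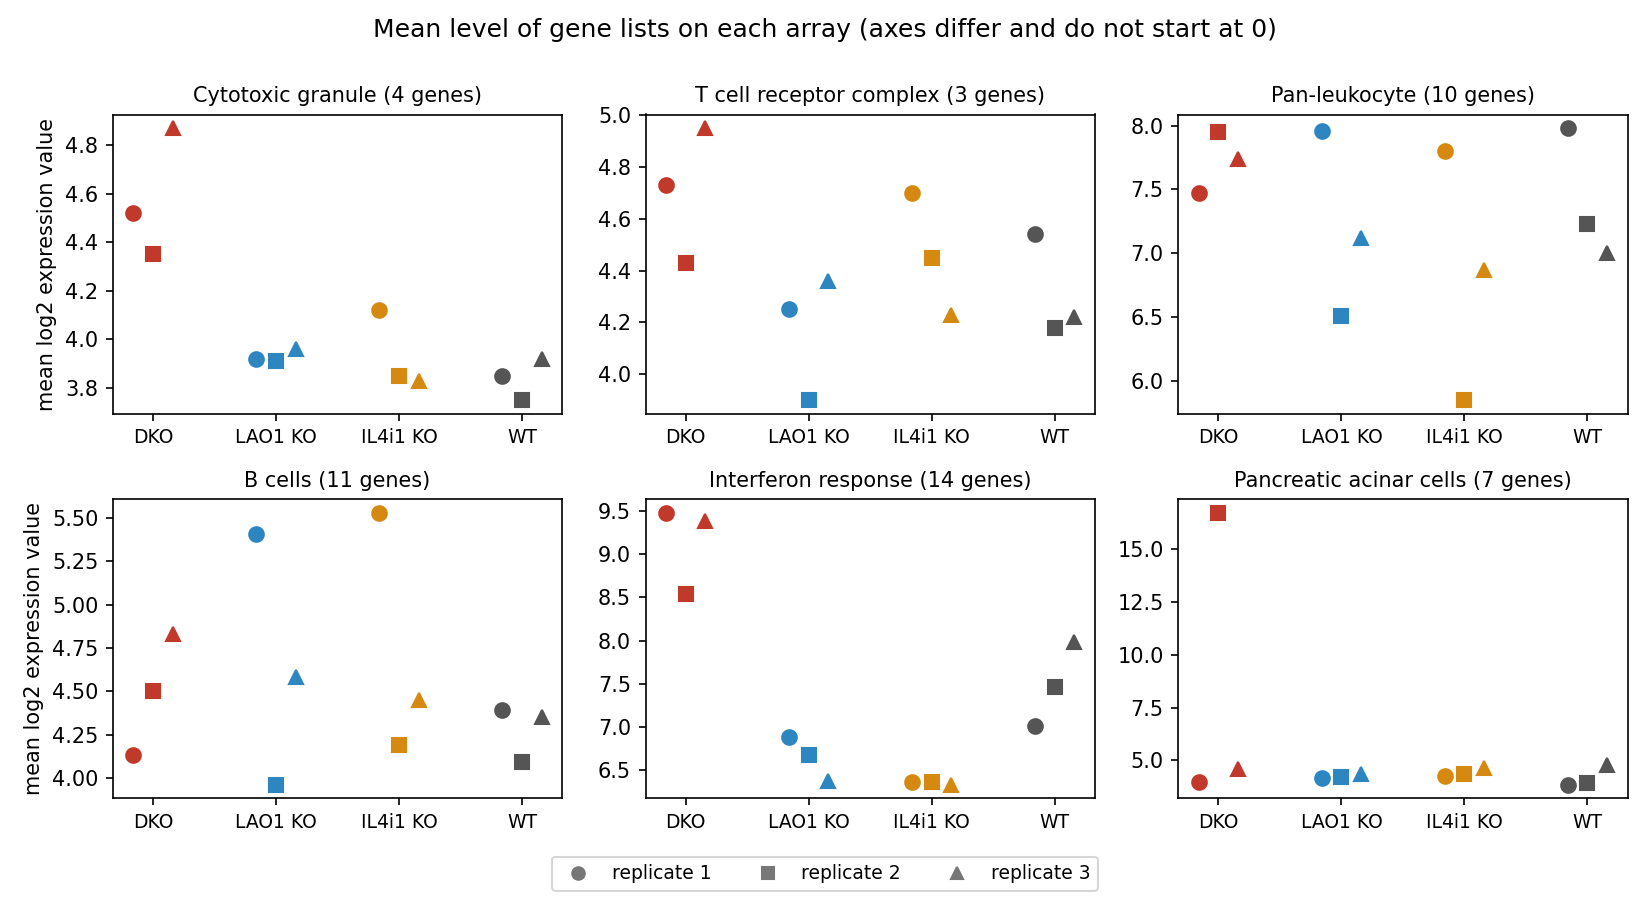
Mean log2 value of 6 gene lists on each array by genotype: the 4 cytotoxic granule genes, the 3 CD3 genes, and pan-leukocyte, B cell, interferon response and pancreatic acinar lists. Axes differ and do not start at 0; DKO arrays stand above all others for the granule and interferon lists, all genotypes overlap for the pan-leukocyte and B cell lists, and DKO replicate 2 alone is high for the acinar list.

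Markers of myeloid and of all white blood cells were set beside the Lcp2 and Ccl8 calls. The mean of 11 macrophage, monocyte and dendritic cell genes ranged from 6.23 to 6.65 in DKO, 5.84 to 6.34 in LAO1 KO, 5.48 to 6.08 in IL4i1 KO and 5.97 to 6.79 in WT, so that every DKO array lay above every IL4i1 KO array. Of these 11 genes, 10 had a positive difference in DKO against IL4i1 KO and 3 were higher at an unadjusted p under 0.05 (median 0.51; 5.17% of all probes), 4 were lower in IL4i1 KO than in WT (median -0.45; 4.34%), and 3 had a higher interaction (median 0.8; 3.87%). Of the 10 pan-leukocyte genes, 3 were higher in DKO than in IL4i1 KO (median 1.01). None of them passed the adjusted threshold by limma, and their part in the Lcp2 and Ccl8 values was not tested.

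In DKO against WT the marker lists gave these counts at an unadjusted p under 0.05, beside 3.63% of all probes higher and 3.81% lower. Of 11 macrophage, monocyte and dendritic cell genes 1 was higher and 0 lower (median -0.02), of 11 B cell genes 1 and 0 (median 0.23), of 7 plasma cell genes 0 and 0 by limma (median -0.15), of 7 lymphoid follicle stroma genes 0 and 0 (median 0.22), of 10 pan-leukocyte genes 0 and 0 (median 0.32), of 9 epithelial genes 0 and 0 (median 0.11), and of 5 adipocyte genes 0 and 2 (median -0.77). The 7 acinar genes had a median of 4.38, with 0 at an unadjusted p under 0.05, DKO replicate 2 alone being high.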

How the data were processed

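Expression was measured on Affymetrix arrays of total RNA from whole colon. The authors deposited log2 expression values for 22206 probes and 12 arrays. Transcriptome Analysis Console was used, per the submitters' processing notes. The summarisation, the normalization and the genome build are not given in the sources used here. Groups and replicate numbers came from the labels. The 10 genes and the other lists were chosen with earlier results of these data known, and so were the tests. The text names all 10 genes, and up to 4 genes per comparison from each further lymphocyte, chemokine or interferon list, taken by the smallest unadjusted p under 0.05, with any past the threshold. Some that the rule allows are left to the counts.

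No filter or further normalization was applied. A single linear model with a mean for each genotype was fitted to the 12 arrays with lmFit and eBayes of limma 3.58.1 (R 4.3.3), leaving 8 residual degrees of freedom. Each probe thus has a single spread for all genotypes, which understates that of DKO where the DKO arrays scattered more. Each p is two-sided and, where adjusted, by Benjamini-Hochberg over all probes at a threshold of 0.05. The code was tested on simulated data. The alternatives were quantile normalization, median centring, bright probes only (above the 40th percentile), limma's trend and robust options, only the arrays compared, the replicate number as a block, and leaving out each array. The number of arrays limits the precision. Plots used matplotlib 3.10.9 and Python 3.11.15.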

Additional observations from a re-analysis of the deposited data

Results flagged for a closer look

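Gzmb lay on opposite sides in the absence and the presence of the other enzyme. Its 3 IL4i1 KO arrays all lay below the WT arrays, while its 3 DKO arrays all lay above the LAO1 KO arrays, so that loss of IL4i1 came with a lower value where LAO1 was present and a higher one where it was absent. Likewise the 3 LAO1 KO arrays lay below WT and the 3 DKO arrays above IL4i1 KO. The test of that difference is the interaction, which was 1.65 (adjusted p = 0.257 by limma) and did not pass. The Gzmb probe was dim, with a mean of 4.05 over all arrays. Some separations were narrow beside its residual SD of 0.41. The highest IL4i1 KO value was 3.9 and the lowest WT value 3.96. The lowest DKO value was 3.97, on replicate 2, the array with the acinar signal. Over all probes, 216 (0.973%) separated in opposite directions in the first way and 176 (0.793%) in the second. The groups had 3 arrays each, too few to look for single outlying arrays by a gap test.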

How the results depend on the processing

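None of the 10 genes passed the adjusted threshold in any comparison except without DKO replicate 2, where Gzma passed in the 3 DKO contrasts and Gzmb in DKO against LAO1 KO, DKO against IL4i1 KO and the interaction. Of 1034 values of single genes under an alternative, 1028 kept their side of the threshold and the others were these 6. The Gzma difference of DKO from WT lay between 1.08 and 2.04 over 18 alternatives, with adjusted p from 0.0234 to 0.885. With bright probes only, 6 of the 10 genes were not tested. Each gene had 1 probe, so no other was tried. With 3 arrays a group, small differences could not be resolved. For the other named genes, given these alternatives after the data were seen, 2968 of 3049 values kept their side of the threshold. Calls were lost in DKO against IL4i1 KO at 4 alternatives for Lcp2 (adjusted p up to 0.142) and at 4 for Ccl8 (up to 0.0941), both without IL4i1 KO replicate 2 or 3 or with only the arrays compared, Lcp2 also without DKO replicate 1 and Ccl8 without DKO replicate 3. The Ccl8 interaction was lost at 10 (up to 0.13). The replicate block gained calls for Ifng in DKO against LAO1 KO (adjusted p = 0.0386) and Ccr2 in DKO against IL4i1 KO (0.0327) and the interaction (0.0239), which passed also without IL4i1 KO replicate 1 (0.0406). Among interferon genes, calls were lost against LAO1 KO for Gbp2 (at 3 alternatives) and Tap1 (5), against IL4i1 KO for Psmb8 (3) and Psmb9 (5), and in the interaction for Irf1 (11) and Psmb8 (13), with adjusted p up to 0.188. Those past the threshold in DKO against WT numbered 6 without DKO replicate 2 and 1 with trend and robust options, and 0 otherwise.

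Counts of the 10 genes at an unadjusted p under 0.05 moved as follows. Each range covers only the fits that left out 1 array, so a count under another alternative may lie outside it. In DKO against WT (3 genes) the count was 6 without DKO replicate 2 (5 higher and Cd4 lower, beside 5.11% and 4.87% of all probes; range 2 to 6). In LAO1 KO against WT (1 gene) it was 3 with only the arrays compared, and 0 with bright probes, quantile normalization, the replicate block, and trend and robust options. Those 3 were Gzma, higher, and Cd4 and Gzmb, lower, beside 2.04% and 2.22% of all probes. It was 2 without DKO replicate 2 (both lower, beside 1.69% of all probes) and 0 without IL4i1 KO replicate 1 or 3, LAO1 KO replicate 2 or 3, or any WT replicate (range 0 to 2). In IL4i1 KO against WT (0 genes) it was 1 with only the arrays compared, 1 without DKO replicate 2 or 3 and 2 without IL4i1 KO replicate 3 (range 0 to 2). In DKO against LAO1 KO (5 genes) it was 3 with bright probes and 3 without DKO replicate 3, all higher, beside 3.8% and 4.07% of all probes (range 3 to 5). In DKO against IL4i1 KO (3 genes) it was 5 without DKO replicate 2 (4 higher and Prf1 lower, beside 5.7% and 4.95% of all probes) and 5, all higher, without IL4i1 KO replicate 1 (6.33%; range 3 to 5). In the interaction (2 genes) it was 1 with bright probes and 4 without DKO replicate 2 (range 2 to 4). Fewer genes were tested with bright probes, and the other causes were not tested.

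Probes past the adjusted threshold moved too, and the ranges again cover only the fits that left out 1 array. In DKO against WT (5 probes) there were 2 with only the arrays compared and 11 with trend and robust options. There were 38 without DKO replicate 2, 8 without IL4i1 KO replicate 2, 3 without DKO replicate 3, LAO1 KO replicate 1 or 2 or WT replicate 1, 2 without DKO replicate 1 or LAO1 KO replicate 3 and 1 without WT replicate 2 (range 1 to 38). In LAO1 KO against WT (1 probe) there were 4 without LAO1 KO replicate 1 and 2 without WT replicate 2 (range 1 to 4). In IL4i1 KO against WT (3 probes) there were 8 with trend and robust options, 6 without DKO replicate 1 and 5 without WT replicate 2 (range 2 to 6). In DKO against LAO1 KO (31 probes) there were 68 without DKO replicate 2, 13 and 14 without DKO replicates 1 and 3, and 15 and 11 without LAO1 KO replicates 2 and 3 (range 11 to 68). In DKO against IL4i1 KO (106 probes) there were 33 with only the arrays compared, 174 and 46 without DKO replicates 2 and 1, and 51 and 61 without IL4i1 KO replicates 2 and 3 (range 46 to 174). In the interaction (51 probes) the range was 37 to 74.

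Pairing by replicate number was not tested, as only same-numbered arrays were correlated. Of 18 pairs, 7 had a correlation of deviations over 0.1 (range -0.142 to 0.218). With the replicate block, 166 probes passed in DKO against IL4i1 KO in place of 106, the count of the 10 genes was 0 in place of 1 in LAO1 KO against WT and 4 in place of 3 in DKO against WT, with Cd8a added, and no gene of the 10 passed.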
